A study of Saccharomyces cerevisiae with 83 samples.

Results

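The short footprints were the ribosome-protected fragments of 20-23 nt in 12 of the 83 libraries of a study of nonsense-mediated mRNA decay in Saccharomyces cerevisiae. They were taken as the 20-23 nt columns of the libraries made without cycloheximide, from 6 lysates that each gave a pull-down of Upf-bound ribosomes (IP80S) and a sample of all 80S ribosomes (total80S). In every strain the background was W303, and each carried a chromosomal deletion marked with HIS3 and a FLAG-tagged copy of the deleted gene on a plasmid. FLAG-Upf1 cells were upf1::HIS3 with pG1-FLAG-UPF1, FLAG-Upf2 cells were nmd2::HIS3 with YEplac112-FLAG-UPF2, and FLAG-Upf3 cells were upf3::HIS3 with YEplac195-TPI-FLAG-UPF3. There were 2 lysates of each strain, none of them treated, and the FLAG-Upf2 gene is listed as NMD2 and the FLAG-Upf1 gene as NAM7. The tagged proteins came from plasmids, and their RNA was far above its level in the other strains: NAM7 RNA was 31370 and 32140 CPM (counts scaled to a common library total) in the FLAG-Upf1 lysates against 299 to 403 CPM in the other strains, NMD2 RNA was 7438 and 11400 CPM in the FLAG-Upf2 lysates against 145 to 157 CPM, and UPF3 RNA was 7002 and 7128 CPM in the FLAG-Upf3 lysates against 30.1 to 46.6 CPM. The 83 libraries hold no pull-down from untagged cells, so background of the anti-FLAG purification cannot be told apart from Upf binding.

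Nonsense-mediated decay degrades mRNAs on which ribosomes stop too early, and it depends on the RNA helicase Upf1 and its partners Upf2 and Upf3. A ribosome protects a shorter piece of mRNA when its A site is empty, as while it waits for a tRNA, than when the site is occupied, and the shorter class is best kept when cycloheximide is left out. Selective profiling compares footprints of ribosomes that carry a given protein with footprints of every ribosome in that lysate, so that a transcript with a high ratio holds more than its share of the bound ribosomes.

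The 20-23 nt columns held 71520 to 753596 expected counts in IP80S and 133457 to 583327 in total80S. The smallest, FLAG-Upf1 IP80S replicate 2, had counts on 2764 transcripts and stood apart: its correlation with the other IP80S libraries, on log2(CPM + 5) across transcripts, was 0.63 to 0.69, against 0.77 to 0.95 among the others. The labels do not give the mating type. RNA of the a-specific pheromone gene MFA2 was 81.9 to 102 CPM in the FLAG-Upf1 and FLAG-Upf3 lysates and at most 0.0994 CPM in the FLAG-Upf2 lysates, while the alpha-specific MF(ALPHA)1 was 556 and 611 CPM in FLAG-Upf2 and at most 0.557 CPM in the other strains. A difference between FLAG-Upf2 and the other pull-downs therefore cannot be told apart from one in mating-type expression. The genes NAM7, NMD2 and UPF3 themselves are listed at 0 short footprints in all 12 libraries.

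Short footprints made up a smaller part of the bound ribosomes than of all ribosomes. Of the 20-23 nt and 27-32 nt counts together, the short class took 77.2% in FLAG-Upf1 IP80S replicate 1 against 84.3% in its total80S, and 80.0% in IP80S against 84.4% in total80S for replicate 2. In FLAG-Upf2 it took 55.0% in IP80S against 61.7% in total80S for replicate 1, and 51.2% in IP80S against 62.4% in total80S for replicate 2. In FLAG-Upf3 it took 74.7% in IP80S against 75.4% in total80S for replicate 1, and 52.6% in IP80S against 59.5% in total80S for replicate 2. The share was lower in IP80S in 6 of 6 lysates, with a mean difference of -6.155 ± 3.434 percentage points (SD, n = 6) and an exact two-sided sign-flip p = 0.0312, the smallest that 6 lysates allow. The lysates themselves differed by more than this, and the wild type with YEplac112 had 61.1% and 66.3% in its total80S. Without the pairing of lysates an exact permutation test of the 2 sets gave p = 0.431. The difference was -5.77 points with the transcripts of ribosomal proteins left out.

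Upf-bound ribosomes carried short footprints of a different set of transcripts than all ribosomes did. Of 3546 transcripts with enough counts to be tested, 274 rose and 687 fell in IP80S over the 6 lysates (27.1% called by edgeR's quasi-likelihood F test with the lysate as a block, at an adjusted p under 0.05, 7.73% higher and 19.4% lower). At least a 2-fold change was reached by 111 of those that rose and 629 of those that fell. The counts are shares of a library, so a lower share of one group of transcripts and a higher share of the rest cannot be told apart from the counts alone. The scaling shifts all values alike: with DESeq2's size factors in place of TMM the median of all transcripts moved to -0.11 on the log2 scale, with 183 higher and 743 lower. Without the lysate of FLAG-Upf1 replicate 2, 372 were higher and 820 lower of 4151 tested, and without FLAG-Upf2 replicate 1 or 2 the higher ones numbered 156 or 127 and the lower ones 567 or 518.

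The transcripts furthest above total ribosomes encoded proteins with differing known roles. The largest change among those higher in all 6 lysates and called was on FET4, the low-affinity iron transporter of the plasma membrane. It had 1446, 2034 and 3412 CPM (lowest, median and highest) in IP80S, against 0, 64.4 and 158 CPM in total80S. The 2 sets of libraries were far apart, and the fitted log2 fold change was 4.99 (SE 0.37, edgeR adjusted p = 4.06e-06). Its RNA was 159 to 198 CPM in the same lysates. RTF1, a subunit of the Paf1 transcription elongation complex, had 427, 770 and 1324 CPM in IP80S, against 38.3, 76.9 and 134 CPM in total80S, a log2 fold change of 3.20 (SE 0.37, edgeR adjusted p = 1.53e-05). RPA34, a subunit of RNA polymerase I, had 102, 314 and 657 CPM in IP80S, against 7.49, 24.4 and 51.7 CPM in total80S. RNH203, a subunit of ribonuclease H2, had 126.5, 308 and 755 CPM in IP80S, against 5.50, 38.7 and 74.9 CPM in total80S. Neither gene's libraries overlapped between IP80S and total80S, and the log2 fold changes were 3.40 (SE 0.44) for RPA34 and 3.10 (SE 0.38) for RNH203, with edgeR adjusted p-values of 4.98e-06 and 9.02e-07. STE20, a kinase of the mating pathway, also stood clear of its total level, with 377, 517 and 901 CPM in IP80S, against 38.3, 110.1 and 135 CPM in total80S, a log2 fold change of 2.36 (SE 0.28, edgeR adjusted p = 5.48e-07).

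**Figure D1:**
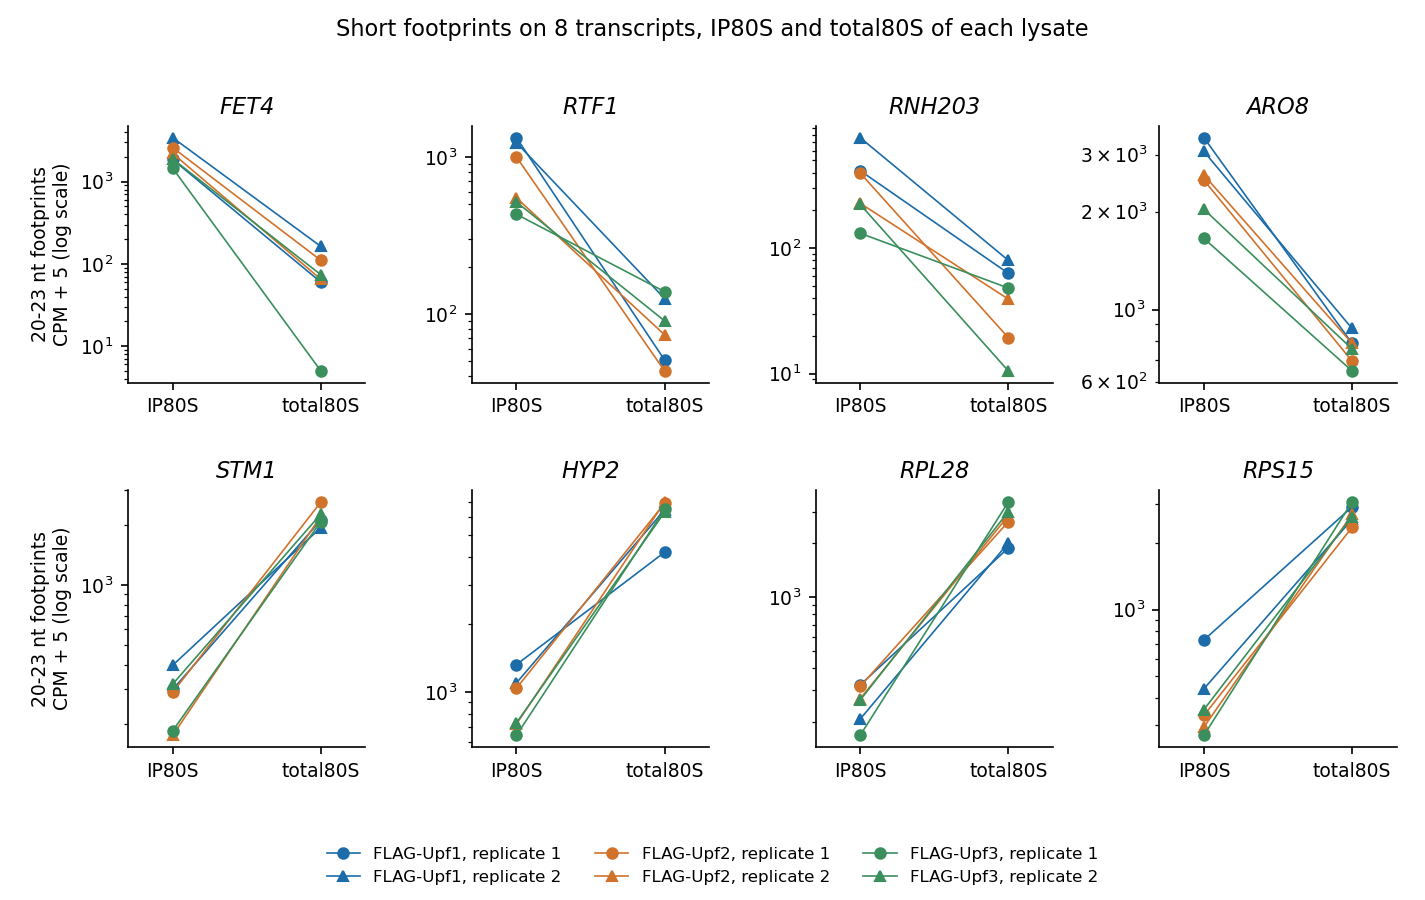
Short-footprint level (CPM + 5, log axis) of 8 transcripts in IP80S, at the left of each panel, and total80S, at the right, with a line joining the 2 libraries of 1 lysate; colour marks the strain and shape the replicate. FET4, RTF1, RNH203 and ARO8 were higher in IP80S in 6 of 6 lysates, and STM1, HYP2, RPL28 and RPS15 were lower in 6 of 6.

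The other transcripts of the top 15 were AIM18, PET8, KSP1, VID30, APM1, BPH1, ATG26, NPY1, BEM4 and NRT1, with log2 fold changes of 1.82 to 2.39. KSP1, a protein kinase, had 102, 290 and 356 CPM in IP80S, against 38.3, 46.0 and 135 CPM in total80S, and the highest total80S library lay above the lowest IP80S library. Apart from KSP1, these were low: NRT1, a nicotinamide riboside transporter, had 62.0, 69.7 and 112 CPM in IP80S, against 0, 21.8 and 38.8 CPM in total80S. In 10 of the 15 the 2 sets of libraries did not overlap. The rule that picked the 15 favours ranges that do not overlap, so this count is not taken as a result. AIM18, PET8, VID30, APM1, BPH1, ATG26, NPY1, BEM4 and NRT1 each lost the call when some single lysate was left out, AIM18 and PET8 without FLAG-Upf2 replicate 1 or FLAG-Upf3 replicate 2 and the others without 3 to 5 different lysates, with edgeR adjusted p-values up to 0.135. FET4, RPA34, RTF1, RNH203, STE20 and KSP1 kept it whichever lysate was left out.

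Some abundant transcripts had smaller changes with small errors. ARO8, an aromatic aminotransferase, had 1651, 2543 and 3376 CPM in IP80S, against 642, 766 and 869 CPM in total80S, a log2 fold change of 1.64 (SE 0.15, edgeR adjusted p = 1.30e-08). PYC2, a pyruvate carboxylase, had 875, 1650 and 2151 CPM in IP80S, against 462, 614 and 803 CPM in total80S. ASC1, a scaffold protein on the small ribosomal subunit, had 10770, 17240 and 21070 CPM in IP80S, against 6721, 8368 and 8721 CPM in total80S. For all of these the lowest IP80S library lay above the highest total80S library. The log2 fold change was 1.18 (SE 0.17) for PYC2 and 0.96 (SE 0.12) for ASC1, and ASC1 thus moved the opposite way to the ribosomal proteins described next.

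Transcripts of cytosolic ribosomal proteins, the structural proteins of the ribosome, had the most members lower of the functional lists. All 137 listed were tested: 127 fell (92.7%, beside 19.4% of all tested) and 0 rose (beside 7.73%), or 129 and 1, RPL18B, without FLAG-Upf1 replicate 2. Their median log2 fold change was -2.51, beside -0.00 over all transcripts tested, and their median effective length was 476 bases, beside 1442. Together they took 4.91%, 5.97% and 7.13% of the short footprints (lowest, median and highest) in IP80S, against 15.8%, 16.8% and 17.9% in total80S, so that no library of one kind reached the range of the other. For the large subunit 76 of 81 fell, with a median of -2.60, and for the small subunit 51 of 56, with a median of -2.40. RPL28 had 163, 262 and 316 CPM in IP80S, against 1880, 2748 and 3405 CPM in total80S, a log2 fold change of -3.45 (SE 0.20, edgeR adjusted p = 9.77e-12). RPS15 had 265, 338 and 724 CPM in IP80S, against 2349, 2661 and 3061 CPM in total80S, a log2 fold change of -2.92 (SE 0.19, edgeR adjusted p = 3.87e-11). Each was lower in 6 of 6 lysates with wide gaps. RPL41A, which encodes the smallest ribosomal protein, had 0, 12.96 and 95.5 CPM in IP80S, against 330, 477 and 1139 CPM in total80S, and RPS30A had 0, 2.54 and 37.6 CPM in IP80S, against 96.2, 191 and 238 CPM in total80S.

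Some ribosomal protein transcripts were not called, and RPL18B and RPS3 are given here as examples chosen after their values were seen. RPL18B had 416, 2038 and 2947 CPM in IP80S, against 951, 1208 and 1330 CPM in total80S. RPS3 had 2419, 3079 and 6363 CPM in IP80S, against 2888, 3731 and 4338 CPM in total80S. The ranges overlapped in both, and the log2 fold changes were 0.49 (SE 0.27) for RPL18B and -0.20 (SE 0.17) for RPS3, with edgeR adjusted p-values of 0.204 and 0.443. Many ribosomal protein genes come as near-identical pairs whose reads the counting program had to divide, so values of single copies are less certain than the summed shares.

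Histone transcripts fell as far. All 10 listed were lower in 6 of 6 lysates and called (100%, beside 19.4% of all tested), with a median log2 fold change of -3.12. Their median effective length was 474 bases, beside 1442 over all tested transcripts. Short transcripts fell in general: in the shortest 10% without ribosomal proteins 153 of 265 were lower, with a median of -2.28. How far the list differs from other transcripts of its length was not tested. HHT2, a histone H3 gene, had 0, 15.1 and 52.8 CPM in IP80S, against 220, 315 and 588 CPM in total80S, a log2 fold change of -4.19 (SE 0.42, edgeR adjusted p = 4.5e-08). HHO1, the linker histone, had 0, 2.65 and 41.95 CPM in IP80S, against 48.8, 72.8 and 95.7 CPM in total80S. The ranges were apart in both. HHT1 and HHF1 fell by 3.59 and 3.51 on the log2 scale.

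Nuclear genes for the respiratory chain and ATP synthase, the mitochondrial complexes of oxidative phosphorylation, were also low, and 34 of 35 listed were tested. Of these 22 fell (64.7%, beside 19.4% of all tested) and 0 rose (beside 7.73%). The median was -2.07, or -0.88 over the 17 tested with a minimum count of 30. Their median effective length was 568 bases, beside 1442 over all tested transcripts. ATP18 had at most 2.47 CPM in IP80S, against 9.57, 38.9 and 105 CPM in total80S. CYC1, cytochrome c, had 0, 23.1 and 55.9 CPM in IP80S, against 235, 305 and 371 CPM in total80S. In neither did the ranges touch, and the larger subunits ATP1 and COR1 fell by 0.61 and 0.90 on the log2 scale. Of 67 mitochondrial ribosomal protein transcripts 43 had enough counts to be tested, and 9 of these fell and 0 rose, 20.9% lower beside 19.4% of all transcripts tested. Their median of -0.84 was 0.02 over the 8 tested with a minimum count of 30, and 16 fell and 2 rose without FLAG-Upf1 replicate 2. The 4 with the largest changes were MRPL40, MRPL20, MRPL27 and MRPL51. Among stress-induced small proteins 9 of 20 were tested, and 6 of these fell (66.7%, beside 19.4% of all tested) and 0 rose. Their median effective length was 500 bases. The superoxide dismutase SOD1, among those that fell, had 62.1, 89.2 and 405 CPM in IP80S, against 735, 847 and 1237 CPM in total80S.

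The 15 named transcripts furthest below total ribosomes were nearly empty in the pull-downs. In 11 of them no IP80S library held more than 3 counts, so these passed the count filter through total80S. Of the 15, 12 were among the transcripts of at most 806 bases of effective length, as were 746 of the 3546 tested. The rule that picked them, and the filter, favour ranges that do not overlap, so overlap is not counted as a result. NHP6B, a chromatin-bound HMG-box protein, had 0 counts in all 6 IP80S libraries, against 17.2, 65.4 and 276 CPM in total80S, at least 5.34-fold lower when each IP80S library is set at 3 counts. GSR1 had 0 CPM in 4 IP80S libraries and 17.2 and 22.6 CPM in the FLAG-Upf2 ones, against 148, 209 and 289 CPM in total80S, a log2 fold change of -4.54 (SE 0.58, edgeR adjusted p = 2.58e-06). CBF1, the centromere-binding factor, had 0 CPM in 4 IP80S libraries and at most 16.9 CPM, against 55.0, 80.1 and 103 CPM in total80S. SSS1, a subunit of the protein translocon of the endoplasmic reticulum, TIM10, a mitochondrial import chaperone, RPA14, a subunit of RNA polymerase I, and BDP1, a subunit of the RNA polymerase III initiation factor TFIIIB, were of the same kind, and the others were SPO12, LOC1, ATP18, YRA2, PBI2, RQT4, RPL41A and RPS30A. RPA14 and RPA34 encode subunits of 1 enzyme and lay at opposite ends.

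**Figure D2:**
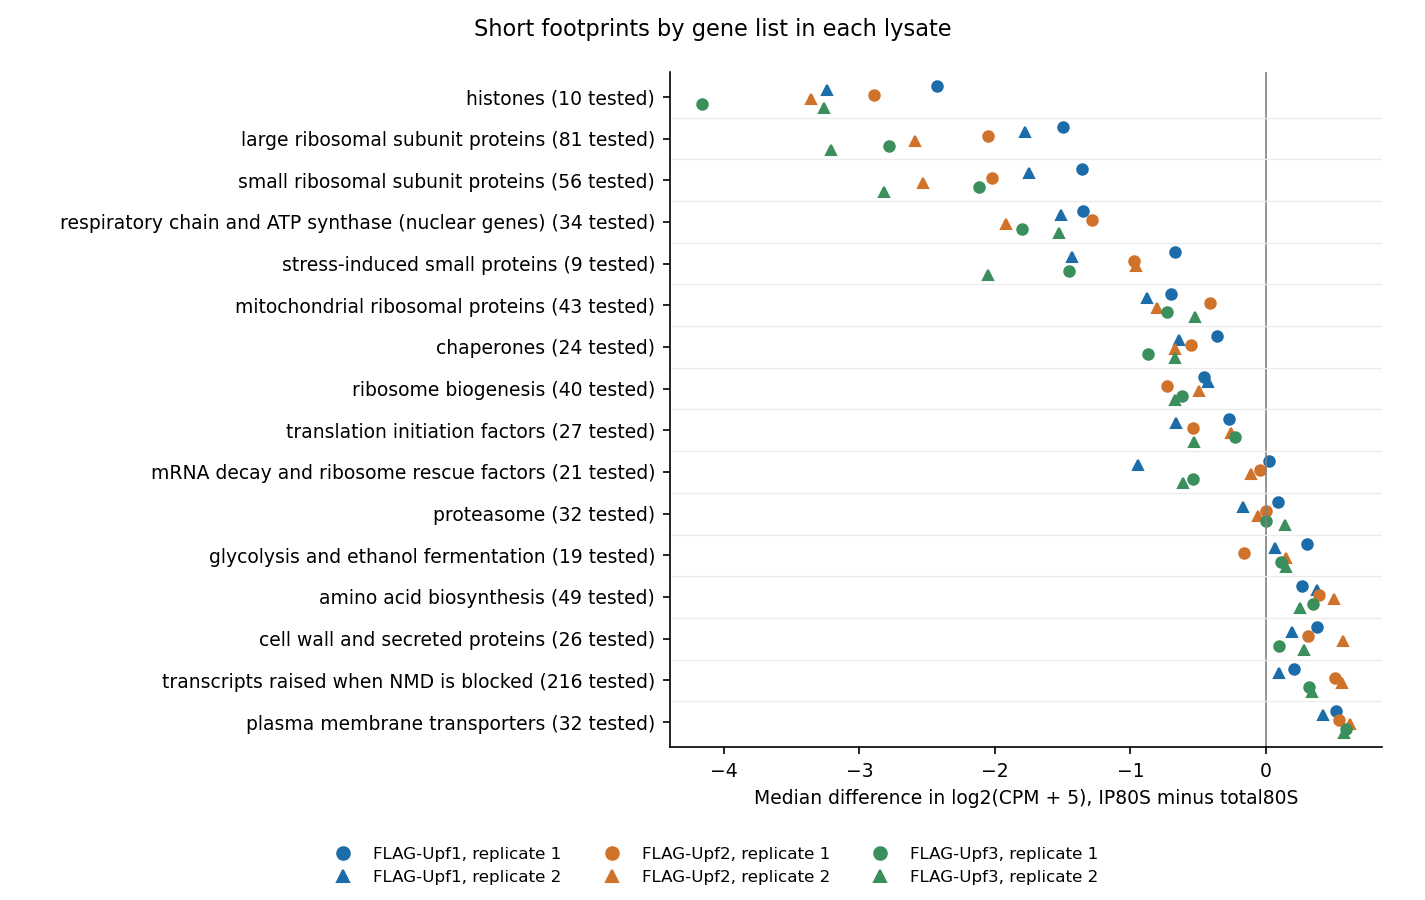
Median difference in log2(CPM + 5), IP80S minus total80S, of the tested members of 16 lists in each of the 6 lysates; colour marks the strain and shape the replicate. The histone list and the lists of cytosolic large and small ribosomal subunit proteins lay between -4.16 and -1.36 in every lysate, and amino acid biosynthesis and plasma membrane transporters lay above 0 in 6 of 6.

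Of 27 initiation factors 13 fell and 2 rose (48.1% and 7.41%, beside 19.4% and 7.73% of all tested), with a median of -0.50. SUI3, the beta subunit of eIF2, had 0, 18.4 and 83.9 CPM in IP80S, against 204, 253 and 325 CPM in total80S, and TIF3, the yeast eIF4B, had 34.1, 42.8 and 168 CPM in IP80S, against 330, 349 and 488 CPM in total80S. TIF11 and SUI1 fell by 2.99 and 2.79. The 2 that rose were TIF1, a gene for the helicase eIF4A (log2 fold change 0.43, SE 0.14), and TIF6 (0.69, SE 0.21), which is needed for the large subunit. With DESeq2's size factors only 1 of the initiation factors was higher.

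The translation elongation and termination list had 12 of 13 members tested, with 3 lower and 1 higher (25% and 8.33%, beside 19.4% and 7.73% of all tested), and a median of -0.07. HYP2, the gene for eIF5A, which helps ribosomes through difficult peptide bonds, had 635, 877 and 1316 CPM in IP80S, against 4174, 6462 and 6984 CPM in total80S, a log2 fold change of -2.87 (SE 0.20, edgeR adjusted p = 2.36e-09). EFB1, an exchange factor of eEF1A, fell by 2.58, YEF3, the elongation factor 3 of fungi, fell by 0.38, and TEF4 was higher by 0.43 (0 members were higher with DESeq2's size factors). The release factors SUP35 and SUP45 had log2 fold changes of -0.01 (SE 0.20) and 0.22 (SE 0.24), with edgeR adjusted p-values of 0.98 and 0.55. Of 24 chaperones tested 12 fell (50%) and 1 rose (4.17%). HSP10, STI1, SIS1 and YDJ1, all of them chaperones or co-chaperones, fell by 2.38 to 3.19, and the ribosome-associated Hsp70 SSZ1 was higher by 0.56 (0 chaperones were higher with DESeq2's size factors). Ribosome biogenesis had 16 of 40 lower (40%) and 4 higher (10%), with NIP7, KRR1, EBP2 and NHP2 lower by 2.66 to 3.56 and UTP15, NOG1, UTP10 and UTP22 higher by 0.84 to 1.07.

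Of 49 amino acid biosynthesis transcripts 17 rose and 3 fell (34.7% and 6.12%, beside 7.73% and 19.4% of all tested), with a median of 0.35. LEU1, the isopropylmalate isomerase, had 2412, 2757 and 3640 CPM in IP80S, against 1198, 1412 and 1709 CPM in total80S, and LYS12 had 168, 301 and 491 CPM in IP80S, against 76.5, 150 and 270 CPM in total80S. ILV5, the acetohydroxyacid reductoisomerase, went the other way with 855, 1102 and 1500 CPM in IP80S, against 2516, 2771 and 3424 CPM in total80S, as did LYS1 and ARO4. With DESeq2's size factors 7 of the list were higher and 3 lower. Leaving out FLAG-Upf2 replicate 1 left 6 higher and 2 lower, and leaving out FLAG-Upf2 replicate 2 left 3 and 2, while without FLAG-Upf1 replicate 1 or FLAG-Upf3 replicate 1 or 2 there were 11, 10 and 11 higher. Of 32 plasma membrane transporters tested (37 listed) 7 rose and 1, the copper transporter CTR1, fell (21.9% and 3.12%), with 3 higher and 1 lower under DESeq2's size factors and 3 higher without FLAG-Upf2 replicate 1 or 2. BAP3, a branched-chain amino acid permease, had 319, 372 and 1092 CPM in IP80S, against 100.4, 153 and 272 CPM in total80S, and the proton pump PMA1 had 11780, 14160 and 16560 CPM in IP80S, against 7785, 9197 and 9771 CPM in total80S. In both the 2 sets of libraries were apart.

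Of 19 glycolysis and ethanol fermentation transcripts 5 were higher and 5 lower (26.3% each, beside 7.73% higher and 19.4% lower of all tested), and all 10 are named here although the rule used for naming gives 4 to a list. PGK1, phosphoglycerate kinase, had 3665, 3860 and 5907 CPM in IP80S, against 8577, 10520 and 12250 CPM in total80S, a log2 fold change of -1.38 (SE 0.14, edgeR adjusted p = 5e-08). TDH3, the main glyceraldehyde-3-phosphate dehydrogenase, had 42220, 50850 and 55900 CPM in IP80S, against 27390, 35210 and 37020 CPM in total80S, a log2 fold change of 0.49 (SE 0.09, edgeR adjusted p = 0.000333). Neither pair of ranges overlapped. ENO1, ENO2, GPM1 and ADH1 also fell, by 0.51 to 0.98, and FBA1, PDC1, CDC19 and TDH2 were higher by 0.31 to 0.68. CDC19, pyruvate kinase, had 23590, 38690 and 51150 CPM in IP80S, against 16500, 23460 and 26710 CPM in total80S. With DESeq2's size factors 4 were higher and 5 lower.

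Of 26 cell wall and secreted proteins tested 7 were higher and 5 lower (26.9% and 19.2%, beside 7.73% and 19.4% of all tested). PIR1, HSP150, CCW14 and CWP2, all wall proteins, fell by 1.45 to 2.65, and those that rose, CCW12, TOS1, UTR2, EXG1, GAS1, ECM33 and SUN4, were higher by 0.48 to 0.80. Under DESeq2's size factors, and without FLAG-Upf2 replicate 2, 4 were higher and 5 lower. The proteasome had 2 of 32 higher (RPN7 and PRE6) and 3 lower (PRE7, RPN6 and RPN10), 6.25% and 9.38% of the list, beside 7.73% and 19.4% of all transcripts tested. The proteasome counts were 4 higher and 5 lower without FLAG-Upf1 replicate 2, 1 and 1 without FLAG-Upf2 replicate 2, and 1 and 0 without FLAG-Upf3 replicate 1.

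Transcript length went along with the ratio over all transcripts. Lengths are effective lengths in bases, which the counting program uses in place of the full length. In the shortest 10% of the tested transcripts, 134 to 560 bases, the median log2 fold change was -2.45, with 239 of 355 lower and 8 higher. In the next groups of 10%, 561 to 780 and 782 to 1001 bases, the medians were -0.97 and -0.27. From 1002 bases up they lay between -0.03 and 0.51, and in the longest 10%, 3194 to 14804 bases, 16 of 353 were lower and 61 higher. Without ribosomal protein transcripts the shortest 10% still had a median of -2.28. Across 3531 transcripts, which share the same libraries and are not replicates, Pearson's r between the log2 ratio and log2 length was 0.464, and it was 0.407 without ribosomal proteins. The r with RNA level was -0.092. Short transcripts also have fewer counts, and how far depth or length each took part was not tested.

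**Figure D3:**
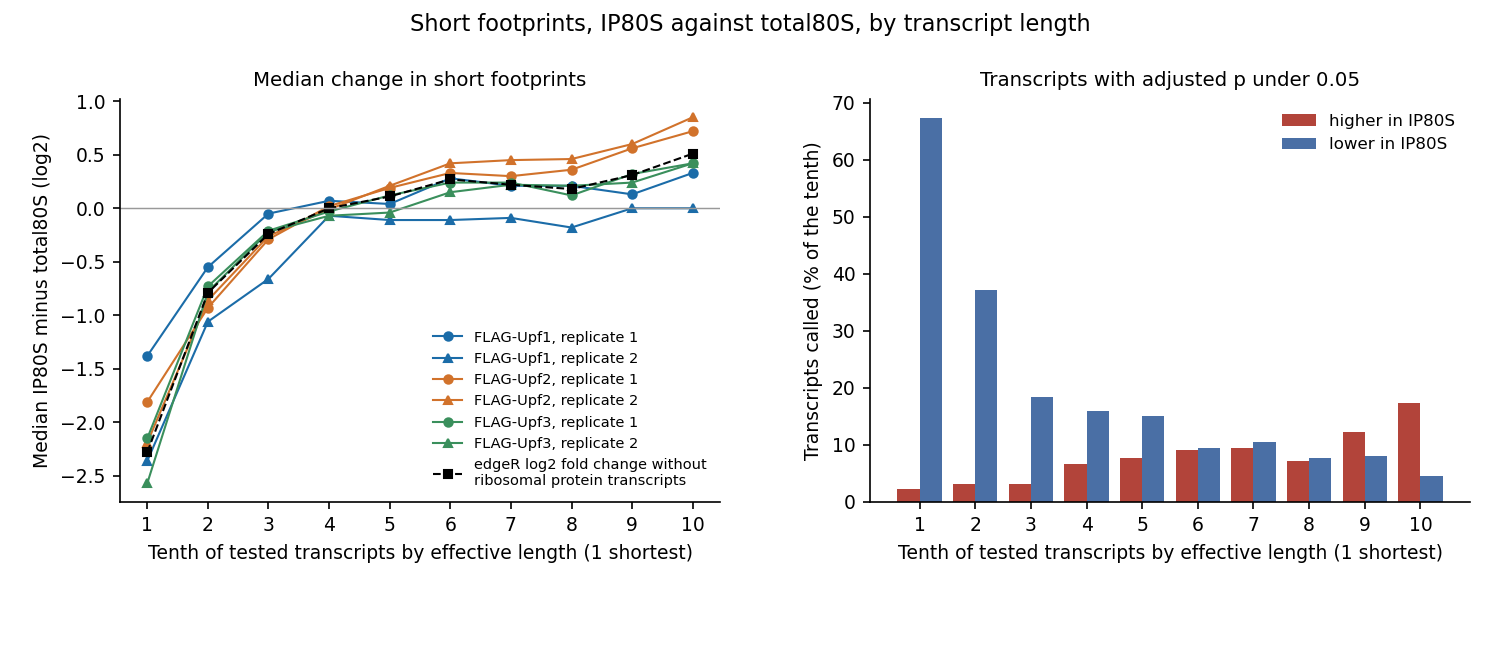
Left: median IP80S minus total80S difference in log2(CPM + 5) per lysate (coloured lines), and median edgeR log2 fold change without ribosomal protein transcripts (dashed), in 10 equal groups of transcripts by effective length; right: percentage of each group called higher or lower. All 6 lysates had their lowest median in the shortest group, where 67.3% of transcripts were lower, against 4.53% in the longest.

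Exceptions to the length order in the shortest and longest 10% numbered 8 and 16, and those named were taken after their values were seen. In between the calls were less ordered. From 1443 to 1672 bases 33 were lower and 32 higher, from 1673 to 1982 bases 37 and 33, and from 1983 to 2417 bases 27 and 25. Among the 16 long transcripts that fell were SCP160, a polysome-bound RNA-binding protein, with 279 ± 94.9 CPM in IP80S and 723 ± 78.4 CPM in total80S (SD, n = 6 each), EDE1, an endocytic scaffold, with 131 ± 78.1 CPM in IP80S and 413 ± 142 CPM in total80S, and SPT5, a transcription elongation factor, with 33.8 ± 31.1 CPM in IP80S and 211 ± 48.6 CPM in total80S. Their log2 fold changes were -1.52 (SE 0.21), -1.85 (SE 0.28) and -2.70 (SE 0.45), with edgeR adjusted p-values of 6.83e-06, 2.22e-05 and 5.73e-05. NUP116, NUP1 and MLP1, components of the nuclear pore, and SLA1, PAN1 and BBC1, of the endocytic actin patch, were also among them, while NUP157 and NUP192, other pore components, rose. Of the 8 short transcripts that rose, RNH203 and CCW12 are named genes and 6 are loci with no entry in the gene table used here. YBR191W-A, at 146 bases, had 0 counts in all total80S libraries and 451, 0, 133, 95.7, 632 and 622 CPM in the IP80S libraries of FLAG-Upf1 replicates 1 and 2, then FLAG-Upf2 and then FLAG-Upf3, at least 26.7-fold higher on the means when each total80S library is set at 3 counts. YOR248W had 2207, 2667 and 3468 CPM in IP80S, against 695, 772 and 1348 CPM in total80S. Whether these loci overlap other genes on the other strand could not be told apart here, since the strand setting of the counting is not given in the sources used here.

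Few known targets of the pathway had enough short footprints to be tested. Of 12 known substrates 5 had enough short footprints to be tested, and 0 were called in either direction by edgeR (1 at an unadjusted p under 0.05, and DESeq2 called 1 lower). CPA1, the arginine-regulated carbamoyl phosphate synthetase with a regulatory upstream reading frame, had 212, 286 and 451 CPM in IP80S, against 159, 202 and 325 CPM in total80S, a log2 fold change of 0.48 (SE 0.24, edgeR adjusted p = 0.145), and was higher in 6 of 6 lysates. ALR1, UBP7, CTF13 and the EST3 entry, which is listed as unspliced, had wider errors. Over the 5 the log2 fold changes ran from -2.47, on EST3, to 0.89, with 3 above 0. EST3 was the 1 that DESeq2 called lower. A broader list came from RNA of the strains with C-terminal tags and their wild type, which share no library with these. Those RNA libraries were all from cells treated with cycloheximide, unlike the short footprints. The list held transcripts higher both in the DE572AA helicase mutant against wild type and in the strain lacking Upf2 against Upf1-FLAG. Of its 838 members 216 had enough short footprints, and 8 of these rose (3.70%, beside 7.73% of all tested) and 8 fell (3.70%, beside 19.4%), with a median log2 fold change of 0.43. In IP80S the 838 members together took 2.33% to 2.81% of short footprints, against 1.79% to 2.14% in total80S, higher in 6 of 6 lysates with no overlap. The median difference of the tested members was 0.10 to 0.56 in the 6 lysates on log2(CPM + 5). Their median effective length was 1648 bases, beside 1442 over all tested transcripts. Transcripts above 1595 bases in general also took a larger share in IP80S, 39.2% to 45.6%, against 30.9% to 32.9% in total80S. How far the list differs from other transcripts of its length was not tested. Of the 71 members with a 2-fold or larger RNA difference 2 could be tested. Of 343 entries listed as unspliced 7 could be, of which the ASC1 and ABP140 entries fell. ABP140 and EST3 are genes with a programmed frameshift that have only such an entry, so their values do not bear on splicing. The broader list had 14 higher and 14 lower without FLAG-Upf1 replicate 2, 5 and 7 without FLAG-Upf1 replicate 1, 3 and 7 or 3 and 8 without FLAG-Upf2 replicate 1 or 2, and 5 and 13 or 7 and 12 without FLAG-Upf3 replicate 1 or 2. Entries listed as unspliced that fell numbered 6 of 17 without FLAG-Upf1 replicate 2 and 1 without either FLAG-Upf2 replicate.

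Among factors of mRNA decay and ribosome rescue 21 of 28 were tested, with 4 lower and 1 higher (19.0% and 4.76%, beside 19.4% and 7.73% of all tested). STM1, which binds and preserves idle ribosomes, had the smallest adjusted p, with 171, 290 and 392 CPM in IP80S, against 1948, 2173 and 2617 CPM in total80S, a log2 fold change of -3.17 (SE 0.19, edgeR adjusted p = 1.81e-11). HEL2, the ubiquitin ligase that senses collided ribosomes, had 0, 3.32 and 64.7 CPM in IP80S, against 45.05, 78.3 and 148 CPM in total80S. The decapping activators LSM1 and PAT1 fell by 1.45 and 1.29. PAN2, of the poly(A) nuclease, had 164, 183 and 257 CPM in IP80S, against 33.0, 66.2 and 89.9 CPM in total80S, and rose by 1.60 (SE 0.34, edgeR adjusted p = 0.00089).

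The same ratio in longer footprints was close to that of the short ones. In the 27-32 nt columns of the same 12 libraries 126 of 2280 transcripts were higher and 364 lower (21.5% called by edgeR, 5.53% higher and 16.0% lower, and 318 in all without FLAG-Upf2 replicate 2), and Pearson's r of the 2 log2 ratios across 2242 transcripts, which share lysates, was 0.862. In 12 other libraries, the 27-32 nt footprints of the same strains treated with cycloheximide, 575 of 4139 were higher and 929 lower (36.3% called, 13.9% higher and 22.4% lower). These share no library with the short footprints, but their lysates are numbered like the untreated ones. Nothing in the labels says that the 2 sets came from separate cultures. Of the 274 transcripts higher in short footprints 211 were also called higher there (77.0% of these and 36.7% of the 575), of the 687 lower 583 were also called lower (84.9% of these and 62.8% of the 929), and 0 were called the opposite way. Among those tested in both, 97.4% of the higher and 99.6% of the lower kept their sign, beside 50.8% and 49.2% of all transcripts with that sign there. FET4 had a log2 fold change of 3.67 in the 27-32 nt class without cycloheximide and 4.38 with it, and ribosomal protein transcripts had 130 of 137 lower with it.

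**Figure D4:**
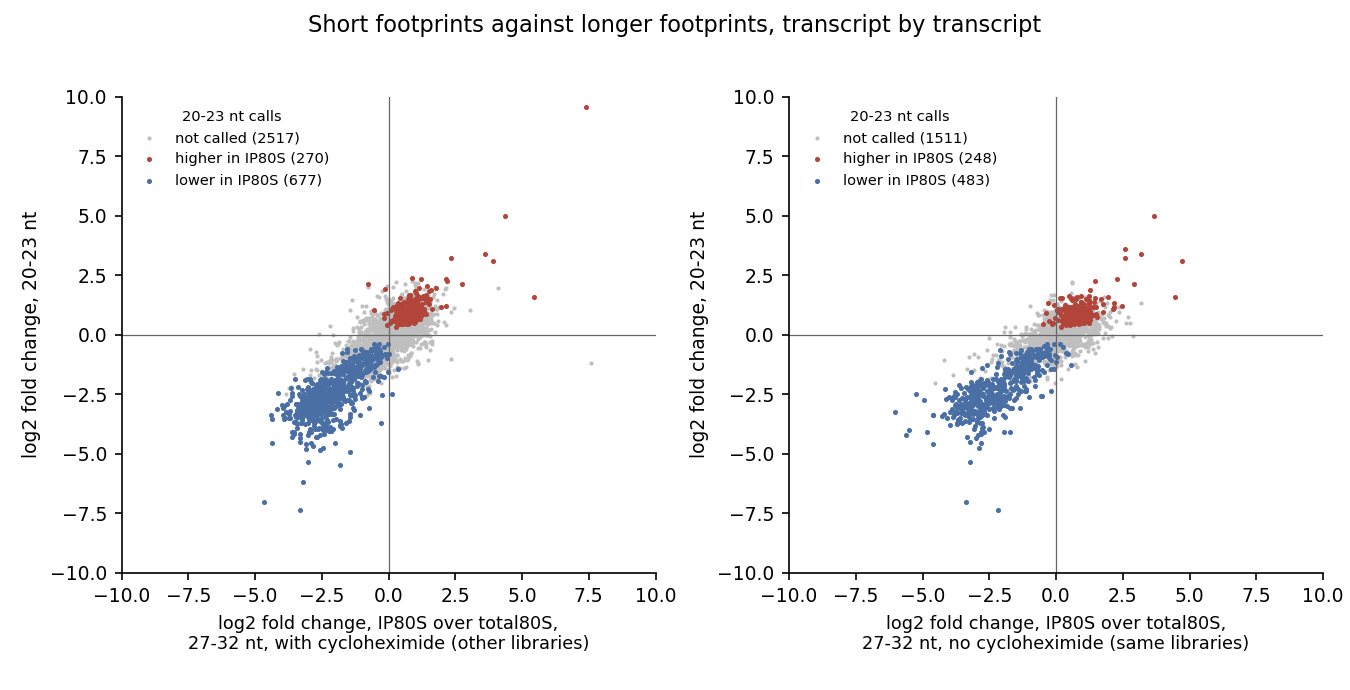
Log2 fold change of IP80S over total80S in 20-23 nt footprints (vertical) against that in 27-32 nt footprints (horizontal) of the cycloheximide-treated libraries, left, and of the same libraries, right; each point is a transcript and colours mark the 20-23 nt calls. The coloured points lie along the diagonal, and in either panel 0 were called in opposite directions.

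A test of the difference between the 2 classes within the same libraries called 3 of 3760 transcripts, 1 with a higher and 2 with a lower ratio for the short class (0.0798%, 0.0266% and 0.0532%, and 146 at an unadjusted p under 0.05 by edgeR's test with the library as a block). CCW12, a cell wall protein, had 13350, 23190 and 45030 CPM of the short class in IP80S, against 12470, 14300 and 28580 CPM in total80S, and 10070, 25060 and 46310 CPM of the long class in IP80S, against 17410, 23460 and 38190 CPM in total80S. The difference of its log2 ratios was 0.64 (SE 0.13, edgeR adjusted p = 0.00284), and it was not called without FLAG-Upf2 replicate 1 (0.51, edgeR adjusted p = 0.515), FLAG-Upf2 replicate 2 (0.0726) or FLAG-Upf3 replicate 1 (0.1058). RPP1B, an acidic protein of the ribosomal stalk, had 96.0, 220 and 411 CPM of the short class in IP80S, against 1049, 1217 and 1785 CPM in total80S, and 189, 271 and 2064 CPM of the long class in IP80S, against 395, 630 and 798 CPM in total80S. The highest long-class value was in FLAG-Upf1 IP80S replicate 2, and without that lysate the difference of the log2 ratios was -1.72 in place of -2.07. NHP6B had 948 CPM of the long class in that library and at most 58.5 CPM in the other IP80S libraries, and its difference of -5.94 (SE 1.27, edgeR adjusted p = 0.00474) was not called without that lysate (-3.80, adjusted p = 0.34) or without FLAG-Upf2 replicate 1 (0.0909) or 2 (0.0726). The count was 5 without FLAG-Upf1 replicate 1, 15 without FLAG-Upf1 replicate 2, 1 without FLAG-Upf2 replicate 1, 6 without FLAG-Upf3 replicate 2 and 1 with no replicate block.

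Each strain on its own gave fewer calls, and the overlap of its lower transcripts with the other strains differed by pair. FLAG-Upf1 IP80S had 55 higher and 162 lower (6.12% called by edgeR, 1.55% higher and 4.57% lower), FLAG-Upf2 IP80S had 102 higher and 306 lower (11.5%, 2.88% and 8.63%), and FLAG-Upf3 IP80S had 109 higher and 315 lower (12%, 3.07% and 8.88%). Of the lower ones 142 were shared by FLAG-Upf1 and FLAG-Upf2 (87.7% and 46.4% of the 2 lists), 138 by FLAG-Upf1 and FLAG-Upf3 (85.2% and 43.8%) and 230 by FLAG-Upf2 and FLAG-Upf3 (75.2% and 73.0%). The higher ones overlapped less. In the same order of pairs 35 (63.6% and 34.3%), 29 (52.7% and 26.6%) and 47 (46.1% and 43.1%) were shared. In all 3 strains 25 transcripts rose and 133 fell. RTF1, ARO8, YOR248W and YBR191W-A were among those named as higher in the FLAG-Upf1 and FLAG-Upf2 pull-downs, and HYP2 and RPL28 as lower in each of the 3. YBR191W-A had no counts in FLAG-Upf1 IP80S replicate 2, as given above, so its FLAG-Upf1 value rested on replicate 1. With 2 lysates a strain these counts depended on single lysates. FLAG-Upf1 had 361 without its replicate 1, FLAG-Upf2 had 203 and 156 without its own replicates 1 and 2 and 697 and 742 without those of FLAG-Upf1, and FLAG-Upf3 had 260 and 252 without its own and 658 and 678 without those of FLAG-Upf1, where a lone lysate was taken to vary like the others. DESeq2 gave fewer of the calls as higher, with 25 higher and 181 lower for FLAG-Upf1, 39 and 364 for FLAG-Upf2, and 41 and 339 for FLAG-Upf3.

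Ribosomal protein transcripts differed most often between the pull-downs. Their median log2 fold change was -1.77 for the FLAG-Upf1 pull-down, -2.59 for that of FLAG-Upf2 and -3.05 for that of FLAG-Upf3, and in 101 of the 137 the FLAG-Upf1 value was the least negative, where 34.7% of all tested transcripts had their highest value in FLAG-Upf1. Their summed share of short footprints was 7.13% and 6.32% in FLAG-Upf1 IP80S, 6.10% and 4.91% in FLAG-Upf2 IP80S, and 5.84% and 5.18% in FLAG-Upf3 IP80S, against 15.9% and 15.8%, 16.4% and 17.9%, and 17.5% and 17.2% in their total80S. A test of any difference between the 3 strains called 24 transcripts (0.677% of those tested, and 230 at an unadjusted p under 0.05, by edgeR's F test), of which 15 were ribosomal protein transcripts, and in 15 of these 15 FLAG-Upf1 was the least negative. In 2 of them FLAG-Upf1 and FLAG-Upf2 were nearly equal, RPL21A with -1.44 and -1.46 and RPS24A with -2.69 and -2.79. FLAG-Upf3 had -3.05 and -4.54 there. RPL20A had 502 and 616 CPM in FLAG-Upf1 IP80S, 255 and 184 CPM in FLAG-Upf2 IP80S and 34.9 and 112 CPM in FLAG-Upf3 IP80S, against 1336 to 1585 CPM in total80S. Its log2 fold changes were -1.49, -2.79 and -4.56 (edgeR adjusted p of the difference 6.72e-05). RPL19B followed the same order with -1.91, -3.17 and -4.88, and RPL37A had -1.35, -4.53 and -4.37.

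**Figure D5:**
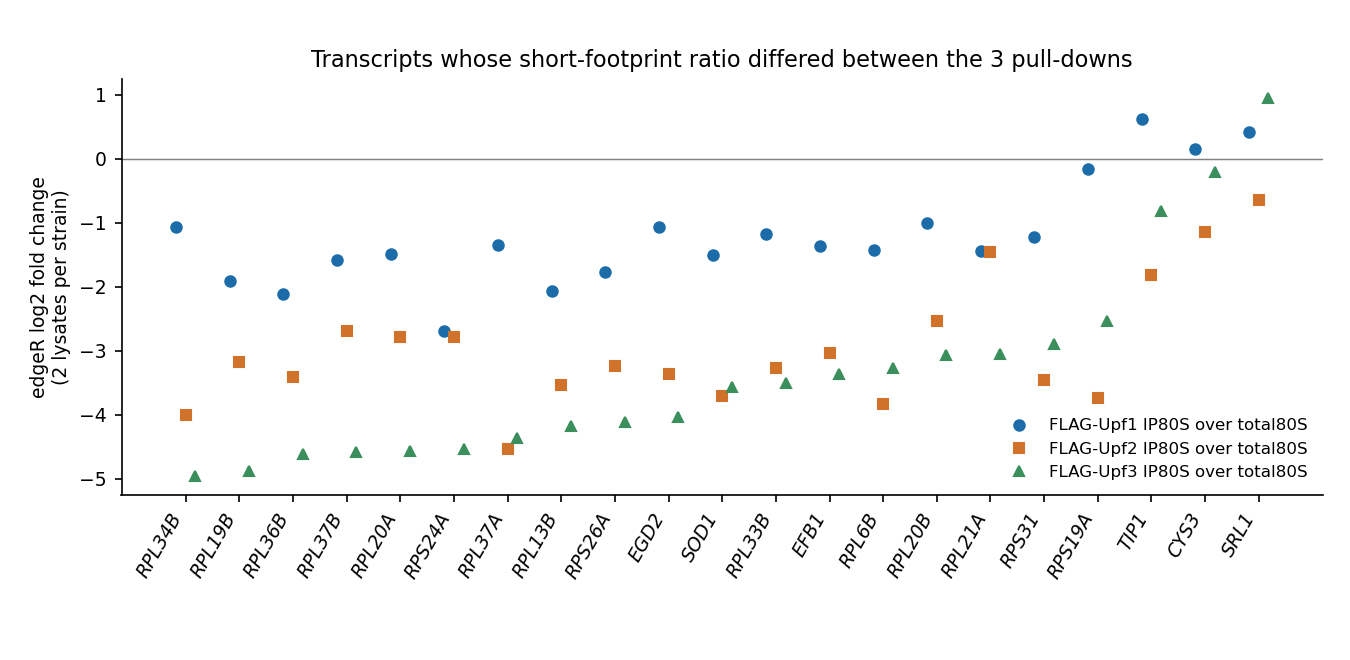
Log2 fold change of short footprints, IP80S over total80S, fitted by edgeR in each strain (2 lysates each) for 21 of the 24 transcripts with a strain difference; the other 3, loci with identical values, are left out. FLAG-Upf1 points lie above the FLAG-Upf2 and FLAG-Upf3 points for the 15 ribosomal protein transcripts, though nearly level with FLAG-Upf2 for RPL21A and RPS24A.

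The 9 calls outside that list were EFB1, SOD1, TIP1, SRL1, CYS3, EGD2 and the loci YLR156C-A, YLR157C-C and YLR159C-A, which had the same values in every library and count as 1. EGD2, a subunit of the nascent polypeptide-associated complex, had log2 fold changes of -1.06, -3.37 and -4.04. By pairs, FLAG-Upf1 differed from FLAG-Upf2 at 13 transcripts (0.367%, 10 above 0 or 0.282% and 3 below 0 or 0.0846%) and from FLAG-Upf3 at 16 (0.451%, 15 above 0 or 0.423% and 1 below 0 or 0.0282%), and FLAG-Upf2 from FLAG-Upf3 at 0 (126 at an unadjusted p under 0.05, by edgeR). The count of 24 was 84 and 66 without FLAG-Upf1 replicates 1 and 2, 45 and 38 without FLAG-Upf3 replicates 1 and 2, 11 with no replicate block and 3 with a minimum count of 30. FLAG-Upf1 libraries also differed from the others in the share of short footprints, given above, and in their depth, and the part of either in these differences was not tested.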

How the data were processed

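Ribosome profiling of yeast (RNase I footprints of IP80S after anti-FLAG purification and of total80S) and RNA-seq of the same lysates were deposited as 6 tables. The 3 tables used for footprints hold expected counts per transcript and length class, which the authors made with RSEM and Bowtie after trimming with cutadapt, per the submitters' processing notes, on build R64 (sacCer3); versions, the strand setting and how duplicates were treated are not given in the sources used here. The FPKM values deposited by the authors for RNA were used only with the RNA expected counts, to recover each transcript's effective length (6501 transcripts, spread at most 0.931%). The tables list 6952 entries, 343 of them labelled as unspliced, and 5966 of 6656 loci matched a RefSeq symbol.

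The expected counts, rounded to integers, were fitted with edgeR 4.0.16 (R 4.3.3, limma 3.58.1): filterByExpr with a minimum count of 10, TMM, robust quasi-likelihood F tests, and Benjamini-Hochberg adjustment over all transcripts tested, with a threshold of 0.05. The SE was taken from the fold change and F (its size over the root of F). Each IP80S library was paired with the total80S library of its lysate, which the labels number alike, so the lysate was a block. As a check, deviations of paired libraries from their group means correlated at -0.00317, 0.0685 and -0.0347 in the 3 strains. The 3 strains shared 1 estimate of the spread, since each had 2 lysates. Nothing in the labels says that lysates came from separate cultures, so p-values measure the spread between these lysates, which may be technical. CPM was scaled to the sum of its length class, per-lysate differences used log2(CPM + 5), and 3 counts served as the floor for fold bounds. Low totals limit precision, and intervals cover counting error and lysate spread only.

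The alternatives were no replicate block, DESeq2's size factors in edgeR, no count filter, a minimum count of 30, DESeq2 1.42.0, spliced and unspliced entries summed, and each lysate left out. Named transcripts were the 15 with the largest called change in each direction with the same sign in all 6 lysates, the 5 with the smallest adjusted p in each direction for strain and interaction tests, and up to 4 called members with the largest change in each list; others are named as chosen after their values were seen. The members, lists and tests were chosen with earlier results of these data known, and the RNase P gene RPP1 and several mitochondrial entries that a name pattern had put in the wrong list were removed. The fits were also run on simulated counts with known changes, and the outcome is not given here or used as support. Tables were read with Python 3.11.15, pandas 2.3.3, numpy 2.4.6 and scipy 1.17.1. No sequence is shown.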

Additional observations from a re-analysis of the deposited data

Results flagged for a closer look

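The pull-downs of the 3 Upf proteins differed from each other at 24 transcripts by edgeR's test of the difference itself. The smallest adjusted p-values of that test were 6.72e-05 for RPL19B, RPL20A and RPL37A, 0.000394 for RPL37B and 0.000967 for RPL6B, all of them ribosomal protein transcripts less depleted in the FLAG-Upf1 pull-down than in the other two. RPL6B had 634 and 406 CPM in FLAG-Upf1 IP80S, 130 and 86.9 CPM in FLAG-Upf2 IP80S, and 157 and 148 CPM in FLAG-Upf3 IP80S. The loci YLR156C-A, YLR157C-C and YLR159C-A, with identical values, had an adjusted p of 0.0491 by that test and ran the other way. Their log2 fold changes were -1.23 for the FLAG-Upf1 pull-down, 2.47 for that of FLAG-Upf2 and 0.31 for that of FLAG-Upf3. They had 208 and 0.14 CPM in FLAG-Upf1 IP80S replicates 1 and 2, against 254 and 142 CPM in total80S. Their FLAG-Upf1 value thus rested on replicate 2, the library with the fewest counts. The part that mating type, library depth or the share of short footprints had in these differences was not tested.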

How the results depend on the processing

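With the block left out, and under 5 other settings, the number of calls over the 6 lysates stayed within 1.5 times of 961, and none of the transcripts named as furthest above or below total ribosomes turned its direction under them. Medians of some lists did: the mitochondrial ribosomal proteins had 0.02 with a minimum count of 30 in place of -0.84, the proteasome -0.10 with DESeq2 in place of 0.01, the elongation and termination factors 0.02 without FLAG-Upf2 replicate 1 in place of -0.07, and the 2 tested transcripts raised at least 2-fold without the decay pathway -1.04, against 0.14 over 32 with no count filter and 0.36 to 0.52 over 3 when any lysate but FLAG-Upf1 replicate 2 was left out. Those of glycolysis and the mating-type markers also changed sign under some settings. The share of short footprints kept its difference of -6.155 points without the replicate block but not its call (exact permutation p = 0.4307), and with 1 lysate left out it lay between -7.243 and -5.162 points, where 5 lysates allow no p below 0.0625. The test between strains gave 11 transcripts with no replicate block, 38 with no count filter, 3 with a minimum count of 30 and 13 with DESeq2, in place of 24, and 21 to 84 with 1 lysate left out. The difference between footprint classes gave 1 with no replicate block and 1 to 15 with 1 lysate left out. With 1 lysate left out the calls numbered 645 to 1192 over the 6 lysates, 175 to 361 for FLAG-Upf1, 156 to 742 for FLAG-Upf2, 252 to 678 for FLAG-Upf3, 318 to 675 for 27-32 nt footprints and 1039 to 1875 for those with cycloheximide. Rises were 28.5% of the calls over the 6 lysates, 19.8% with DESeq2's size factors and 42.7% with a minimum count of 30 (293 higher and 393 lower). The cause was not tested. Depth limits transcripts under about 10 counts in a library, most of the known targets among them.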

Other observations

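Of 3 further lists, chosen after their values were seen and not tested as lists, the cytosolic aminoacyl-tRNA synthetases, which load amino acids onto tRNAs, had 8 of 19 higher and 1 lower (42.1% and 5.26%, beside 7.73% and 19.4% of all transcripts tested). ILS1, the isoleucine enzyme, had 2225, 2417 and 3231 CPM of short footprints in IP80S, against 1069, 1171 and 1318 CPM in total80S, and CDC60, the leucine enzyme, had 1628, 1891 and 2277 CPM in IP80S, against 847, 937 and 989 CPM in total80S. GUS1, the glutamate enzyme, was the 1 that fell, with 660 to 965 CPM in IP80S, against 1141 to 1487 CPM in total80S. The ranges did not overlap in any of these. With DESeq2's size factors 6 were higher and 1 lower, and without FLAG-Upf2 replicate 2 there were 5 and 1.

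The vacuolar proton pump had 4 of 15 higher and 5 lower (26.7% and 33.3%, beside 7.73% and 19.4% of all transcripts tested). For the pump the counts were 2 and 6 under DESeq2's size factors and 2 and 4 or 1 and 4 without FLAG-Upf2 replicate 1 or 2. VMA10, one of its small subunits, had 0, 6.64 and 30.2 CPM in IP80S, against 112, 153 and 323 CPM in total80S, while VPH1, the large membrane subunit, had 713, 904 and 1120 CPM in IP80S, against 371, 463 and 692 CPM in total80S. Of 29 fatty acid and sterol synthesis transcripts 7 rose and 3 fell (24.1% and 10.3%), with 4 and 3 under DESeq2's size factors and 4 and 2 or 4 and 3 without FLAG-Upf2 replicate 1 or 2. FAS1 and FAS2, the chains of fatty acid synthase, had log2 fold changes of 0.46 and 0.63, and ERG1, ERG5 and ERG9, enzymes of sterol synthesis, fell by 0.85 to 1.23.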
